A study of Mus musculus with 4 samples.

Results

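TAM_C1q is the annotated name of a cluster of tumour macrophages. All cells deposited under that name were taken, 7227 of 33368. The cells came from subcutaneous YUMM1.7 mouse melanomas expressing ovalbumin, grown in Rag2-/- mice, whose own lymphocytes include neither T nor B cells. All mice received OT-1 T cells, specific for an ovalbumin peptide, on day 7 and were taken on day 10, 72 h later, when CD45+ cells were sorted. NTT tumours were grown from the line Y1.7_NTT_3A6, naive to targeted therapy, and RTT tumours from Y1.7_RTT_2B12, resistant to it, both kept as cultured lines, the resistant ones in the BRAF inhibitor dabrafenib. RTT_ROSA26 tumours were grown from a resistant line with a control guide against the Rosa26 locus, and RTT_PTGS12KO tumours from a resistant line in which Ptgs1 and Ptgs2, which encode both cyclooxygenases that start prostaglandin synthesis, were targeted. The knockout was thus in the injected melanoma cells and not in the macrophages. Each group was 1 sample. The labels describe 1 tumour per condition and the study's figure legends describe pooled tumours, so what 1 sample holds was not settled. RTT held 3412 of the TAM_C1q cells, RTT_ROSA26 2247, RTT_PTGS12KO 1556 and NTT 12.

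Tumour-associated macrophages form from blood monocytes and from resident macrophages, and take up dying cells, debris, lipids and iron. C1q, the first component of the classical complement pathway, is made by macrophages themselves and binds apoptotic cells and immune complexes. C1qa, C1qb and C1qc encode its chains and are adjacent on chromosome 4 of GRCm38 at chr4:136895917-136898803, chr4:136880129-136886187 and chr4:136889804-136893065, all on the minus strand. Interferon-gamma, released by T cells and NK cells, acts in part through IRF1 to raise guanylate-binding proteins, the chemokines Cxcl9 and Cxcl10, and MHC genes in macrophages, while prostaglandin E2 acts on them through the receptors Ptger2 and Ptger4.

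The guides listed for the knockout are shown because they define the comparison. Each is given 5′ to 3′ with the adjoining PAM, the short motif that Cas9 needs, in capitals. The Ptgs1 guide matched exon 11 of the full-length transcript at chr2:36251276-36251295, and the Ptgs2 guide matched exon 7 at chr1:150104014-150104033, both antisense to the transcript.
Ptgs1 guide: gcacacggaaggaaacatagGGG
Ptgs2 guide: gttgtgctcccgaagccagaTGG

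With 1 sample per group, the differences below could not be checked against replicates and no test was run. Levels are CPM, the UMIs of a gene per 1e6 UMIs summed over the TAM_C1q cells of a sample. Ratios are log2 ratios of CPM + 1, and a ratio of 1 or more either way is a difference of at least 2-fold. All intervals are 95% intervals that cover counting error only, exact Poisson for sums, exact Clopper-Pearson for shares and ratios, and UMIs are molecules, not mice. RTT and RTT_ROSA26 are both resistant tumours with intact Ptgs1 and Ptgs2, and their difference is set beside that of the knockout. It is 1 difference between single samples and gives no spread between tumours. RTT_ROSA26 also carried a guide and RTT did not. Summed TAM_C1q UMIs were 49512753 in RTT, 34522629 in RTT_ROSA26, 23605280 in RTT_PTGS12KO and 260440 in NTT. The median cell held 13182 to 14062 UMIs in the 3 resistant tumours and 21128 in NTT. Ribosomal genes took a median of 21.0% to 24.8% of UMIs in these 3. The samples were pooled and loaded 3 times, so ranges over loads are technical. Of the TAM_C1q cells, 50 carried a barcode seen again in another load, and 0 barcodes were repeated within a load.

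The first question was whether the cells bear the markers of their name. In each resistant tumour all 10 markers, Fcrls, Apoe, Npl, Gas6, Ms4a7, Trf, Stab1, Fabp5, Mrc1 and Folr2, were detected, and 5, 4 and 5 of the 10 genes with the highest ratio to all other cells were among them in RTT, RTT_ROSA26 and RTT_PTGS12KO. The cells were clustered on these genes, so the values are a description. In RTT and RTT_PTGS12KO all 10 markers passed 2-fold over all other cells. In RTT_ROSA26 only Fabp5, at 1.25, and Apoe, at 1.05, did so, and Mrc1, at 0.51, ranked 117. C1qa ranked 61, 45 and 80 in RTT, RTT_ROSA26 and RTT_PTGS12KO, C1qb 90, 41 and 119, and C1qc 52, 32 and 87. The first gene in RTT was Hbb-bs, a haemoglobin chain. Apoe, which encodes a lipid carrier, was at 30621 CPM in RTT, 22274 in RTT_ROSA26 and 11391 in RTT_PTGS12KO. Fcrls, an Fc receptor-like gene known from microglia, was at 878 CPM in RTT, 1084 in RTT_ROSA26 and 807 in RTT_PTGS12KO. Gas6, the bridge between dying cells and the receptors Mertk and Axl, was at 136 CPM in RTT, 150.2 in RTT_ROSA26 and 89.8 in RTT_PTGS12KO. Apoe was lowest in RTT_PTGS12KO by its interval, and so was Gas6. After each cell was thinned to 5000 UMIs, Fcrls had a UMI in 89.1% (88.0% to 90.2%) of the RTT cells, 94.1% (93.0% to 95.04%) of the RTT_ROSA26 cells and 88.1% (86.4% to 89.7%) of the RTT_PTGS12KO cells, against 3.82% (2.35% to 5.84%) and 6.52% (3.91% to 10.1%) of NK cells in NTT and RTT_PTGS12KO, which should lack it. Unthinned, the TAM_C1q shares were 95.3%, 97.2% and 95.7%.

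C1q itself did not set these cells apart from every other macrophage. C1qa was at 3262 CPM in RTT, 3188 in RTT_ROSA26 and 2568 in RTT_PTGS12KO in TAM_C1q. In TAM_H2Ab1, the macrophages named for MHC class II, it was at 3782 in RTT and 2766 in RTT_PTGS12KO, and in TAM_cycling, the dividing macrophages, at 2944, 2951 and 2057 in RTT, RTT_ROSA26 and RTT_PTGS12KO. In TAM_Spp1 it was at 1252, 981 and 1349. TAM_C1q was thus complement-rich beside TAM_Spp1, but not beside TAM_H2Ab1, whose interval for C1qa in RTT, 3653 to 3914 CPM, lay above that of TAM_C1q, 3246 to 3278. Fcrls, by contrast, was at 147 in TAM_H2Ab1 of RTT and at 802 in TAM_cycling. Apoe was at 17616 and 15727 in the same classes. In RTT_ROSA26 Fcrls was at 1084 CPM in TAM_C1q and 1092 in TAM_cycling, so it did not set the classes apart there. A further class, deposited as Macro, held 99, 130 and 96 cells in RTT, RTT_ROSA26 and RTT_PTGS12KO. Its C1qa was at 3600, 3390 and 1430 CPM, above TAM_C1q in RTT and RTT_ROSA26 but not in RTT_PTGS12KO. The same held for Folr2, at 713, 904 and 186, and Gas6, at 276, 417 and 36.0. Fcrls, Ms4a7, Stab1 and Fabp5 were lower in Macro than in TAM_C1q in each of these tumours. In TAM_cycling of RTT, 83.4% of cells held more UMIs of the 10 TAM_C1q markers than of 10 TAM_Spp1 markers. This share was 87.9% in TAM_cycling of RTT_ROSA26 and 45.4% in that of RTT_PTGS12KO.

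**Figure D1:**
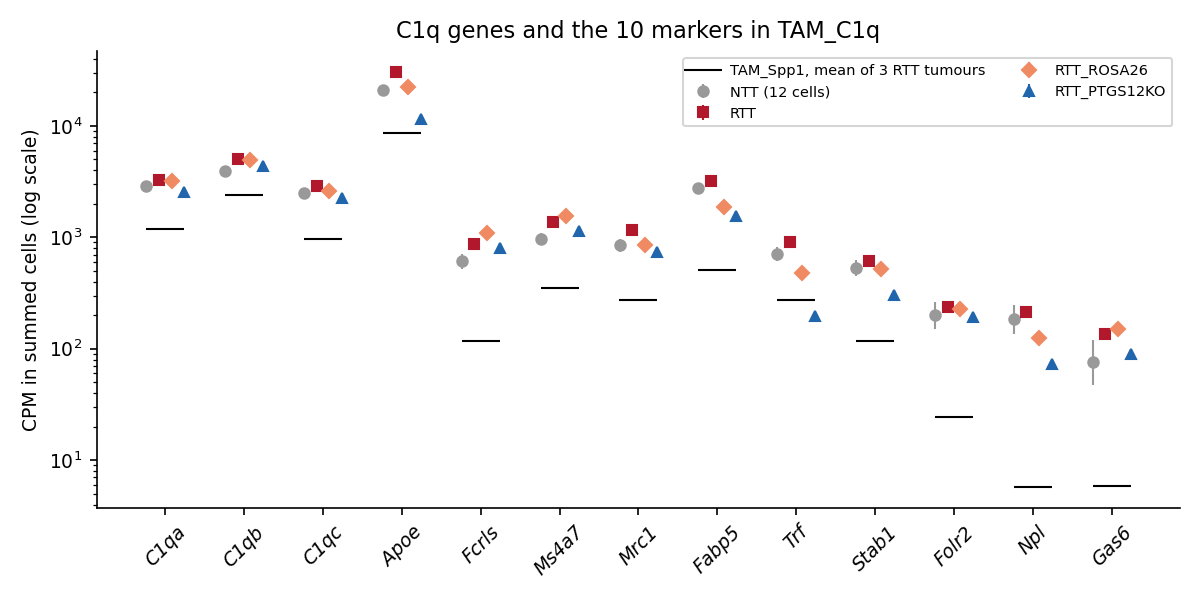
CPM, on a log scale, of the 3 C1q genes and the 10 markers in the summed TAM_C1q cells of each sample, with 95% exact Poisson intervals for counting error; the black dash is the mean CPM of TAM_Spp1 cells over the 3 resistant tumours. In RTT_PTGS12KO, Apoe was at 11391 and Trf at 196 CPM, the lowest of the 4 samples, while C1qa lay between 2568 and 3262.

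TAM_C1q was then set against TAM_Spp1, the macrophages named for osteopontin. Of the genes with at least 10 CPM, 260 of 6677 (3.89%) were at least 2-fold higher and 149 (2.23%) at least 2-fold lower in TAM_C1q of RTT. In RTT_ROSA26 these shares were 3.39% and 2.69%, and in RTT_PTGS12KO 1.87% and 1.37%. Among the 2721 genes that reached 50 CPM in either class of any resistant tumour, the highest mean ratios were those of Vcam1, Npl, Gas6, Ccl8, Cbr2, Ch25h, Cela1 and Ctla2a. For Vcam1, an adhesion molecule, the log2 ratio was 4.46, 4.59 and 4.66 in RTT, RTT_ROSA26 and RTT_PTGS12KO. Npl, a sialic acid lyase, gave 4.64, 4.34 and 3.79, and Folr2, a folate receptor of resident macrophages, gave 3.49, 2.85 and 3.05. The lowest of these genes were Chil3, Vcan, Cd24a, F10, Mcemp1, Il1r2, Slpi and Hp, several of them genes of monocytes. Chil3, a chitinase-like gene of monocytes, gave -3.75, -4.35 and -2.35.

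Gene groups differed between these clusters too. All 10 TAM_C1q markers were at least 2-fold higher than in TAM_Spp1 in RTT and in RTT_ROSA26 and 8 of 10 in RTT_PTGS12KO, the exceptions being Apoe at 0.82 and Trf at 0.50. The rule that names the cluster rests on such genes, so nothing follows from the count. Of 23 lysosomal genes, 5 were at least 2-fold higher in RTT, among them Cd63 at 2.02 and Ctsb, a cathepsin, at 1.97, and 0 were lower. Of the iron genes 2 of 12, 2 of 11 and 1 of 11 were at least 2-fold higher in RTT, RTT_ROSA26 and RTT_PTGS12KO, with medians of 0.44, 0.57 and 0.32. Those counted in RTT were Trf, at 912 CPM against 450 in TAM_Spp1, and Slc40a1, the iron exporter. Slc40a1 gave 3.78, 2.81 and 1.99, though it averaged under 10 CPM in RTT_ROSA26 and RTT_PTGS12KO. Cd163, the haemoglobin scavenger receptor, gave 3.46, 3.65 and 2.28 and was not among the genes counted in RTT. MHC class II went the other way, with 5 of 7 genes at least 2-fold lower in RTT, and 4 of 7 genes in RTT_ROSA26 and 7 of 8 in RTT_PTGS12KO. H2-Aa, a class II chain, gave -2.24, -1.94 and -1.88. Interferon-gamma response genes had medians of -0.08, 0.44 and -0.001, close to 0 in RTT and RTT_PTGS12KO. Among the microglia-type genes, Cx3cr1 gave 2.14, 1.702 and 1.02 and Gpr34 2.91, 3.13 and 1.98, while Sall1 and Siglech were at or near 0 CPM in all 4 samples.

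The next question was how many of these cells each tumour held. TAM_C1q made up 42.8% (41.7% to 43.9%) of the CD45+ cells in RTT, 32.9% (31.8% to 34.0%) in RTT_ROSA26, 15.1% (14.4% to 15.8%) in RTT_PTGS12KO and 0.145% (0.0750% to 0.253%) in NTT. The share in RTT_ROSA26 was 2.17-fold that in RTT_PTGS12KO, and the share in RTT was 1.30-fold that in RTT_ROSA26. Over the loads RTT ran from 41.6% to 43.8%, RTT_ROSA26 from 32.3% to 33.3% and RTT_PTGS12KO from 13.8% to 16.3%, with no overlap. Among macrophages, counted as TAM_C1q, TAM_Spp1, TAM_cycling, TAM_H2Ab1 and Ctsk_Macro, the share was 50.7% (49.5% to 51.9%) in RTT, 37.5% (36.3% to 38.7%) in RTT_ROSA26, 29.9% (28.6% to 31.1%) in RTT_PTGS12KO and 3.90% (2.03% to 6.71%) in NTT. The class named Macro was not counted among these macrophages. The step from RTT_ROSA26 to RTT_PTGS12KO was then 1.25-fold and that from RTT to RTT_ROSA26, resistant tumours with intact Ptgs1 and Ptgs2, 1.35-fold. The order of these steps turned when only cells with more TAM_C1q than TAM_Spp1 marker UMIs were counted, at 1.7-fold and 1.44-fold. NTT macrophages were few, 308 cells in all.

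**Figure D2:**
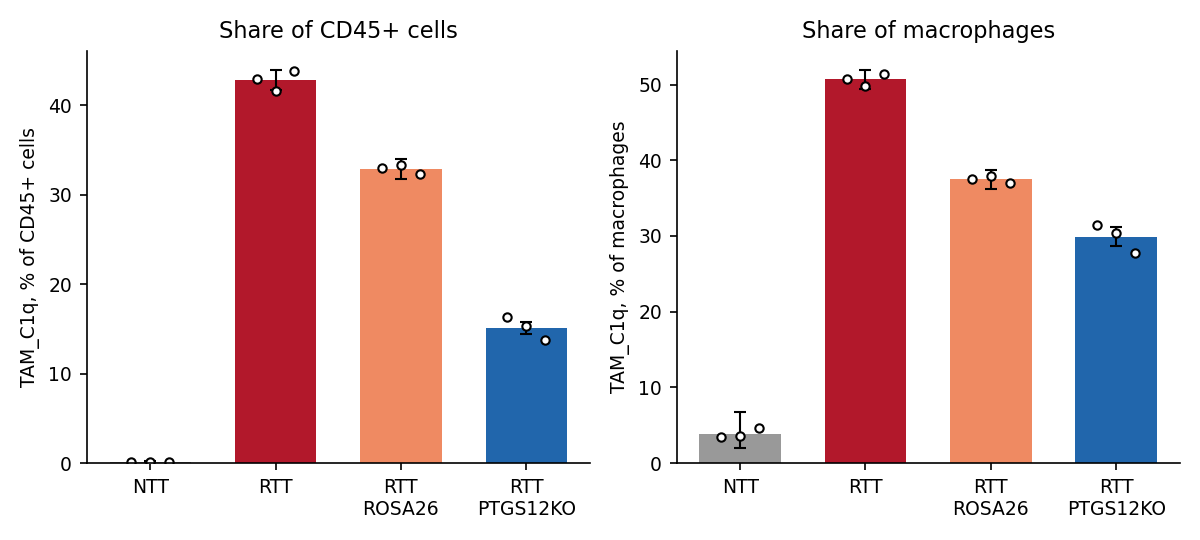
Share of TAM_C1q cells among CD45+ cells (left) and among macrophages (right), in percent, by sample; bars are pooled over 3 loads, lines are 95% exact binomial intervals for counting error and open points are single loads. RTT_PTGS12KO stood at 15.1% of CD45+ cells and 29.9% of macrophages, against 32.9% and 37.5% in RTT_ROSA26.

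The balance of marker UMIs in the cells under this name differed between the 3 resistant tumours. In RTT 98.0% (97.51% to 98.5%) of them held more UMIs of the 10 TAM_C1q markers than of the 10 TAM_Spp1 markers, such as Spp1 and Fn1. The share was 92.0% (90.8% to 93.1%) in RTT_ROSA26 and 67.9% (65.5% to 70.2%) in RTT_PTGS12KO. Counting only such cells, TAM_C1q made up 10.3% of CD45+ cells and 20.3% of macrophages in RTT_PTGS12KO. Among 5000 UMIs per cell, the median cell held 189 UMIs of the TAM_C1q markers in RTT, 136 in RTT_ROSA26 and 76 in RTT_PTGS12KO. Unthinned, these medians were 495, 368 and 214. Of the TAM_Spp1 markers the median cell held 35, 35 and 52, or 88, 92 and 139.5 unthinned. Thinning left out 99 cells of RTT, 85 of RTT_ROSA26, 47 of RTT_PTGS12KO and 1 of NTT. The cells were clustered with these marker genes, so the counts are a description. Apoe gave 30621 of the 39379 CPM of the 10 TAM_C1q markers in RTT. It gave 22274 of 29120 in RTT_ROSA26 and 11391 of 16480 in RTT_PTGS12KO, so the counts rest largely on Apoe.

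The main comparison asked how TAM_C1q cells differed between tumours with and without Ptgs1 and Ptgs2 in the melanoma cells. Interferon-gamma response genes were higher in RTT_PTGS12KO as a group. Of 6821 genes with at least 10 CPM, 90 (1.32%) were at least 2-fold higher and 37 (0.542%) at least 2-fold lower in RTT_PTGS12KO than in RTT_ROSA26, with a median log2 ratio of -0.07. For RTT_ROSA26 against RTT, 12 of 6867 (0.175%) were at least 2-fold higher and 38 (0.553%) lower, with a median of 0.01. With RTT as the comparator, 97 of 6803 (1.43%) were at least 2-fold higher and 114 (1.68%) lower in RTT_PTGS12KO, so the balance of directions depended on the comparator. These comparisons share samples, so their values are only set side by side. Of 27 interferon-gamma genes listed, 18 of the 18 that averaged 10 CPM or more over both samples were at least 2-fold higher in RTT_PTGS12KO and 0 lower, with a median of 2.24 (2.12 to 2.37), the interval being the median of the genes' bounds. A gene can reach 10 CPM through the sample in which it is high, so the count was also taken over the 13 genes that averaged it over RTT and RTT_ROSA26, of which 12 were at least 2-fold higher, with a median of 1.91. The other 1 was Gbp9, at 14.6 CPM in RTT, 6.14 in RTT_ROSA26 and 12.03 in RTT_PTGS12KO. In RTT_ROSA26 against RTT, 6 of 13 were at least 2-fold lower and 0 higher, with a median of -0.87 (-0.95 to -0.78). RTT_ROSA26 was thus low for these genes among resistant tumours, and RTT_PTGS12KO against RTT gave 15 of 19 genes at least 2-fold higher, the lowest ratio being -0.26 and the median 1.39.

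Among the 2501 genes that reached 50 CPM in either sample, ribosomal protein and mitochondrial genes apart, the highest ratios included those of Iigp1, Hspb1, Cxcl10, Gbp2, Irf1, Irgm1 and Cd274. Iigp1, an immunity-related GTPase, was at 29.6 CPM in RTT, 9.70 in RTT_ROSA26 and 179.7 in RTT_PTGS12KO, and its log2 ratio for RTT_PTGS12KO against RTT_ROSA26 was 4.08 (3.93 to 4.23), with 3.58 to 4.42 over the loads. Irf1, the transcription factor that carries much of the interferon-gamma response, was at 98.0 CPM in RTT, 27.5 in RTT_ROSA26 and 206 in RTT_PTGS12KO, a log2 ratio of 2.86 (2.76 to 2.96), with 2.56 to 3.11 over the loads. For both genes RTT_PTGS12KO was highest and RTT_ROSA26 lowest of the resistant tumours. Irf1 had a UMI in 28.9% (27.3% to 30.4%) of thinned cells in RTT, 11.9% (10.6% to 13.4%) in RTT_ROSA26 and 46.4% (43.8% to 48.9%) of those in RTT_PTGS12KO (unthinned 48.6%, 27.3% and 65.1%), and in 36.2% (30.6% to 42.2%) of NK cells in RTT_PTGS12KO, which use the gene themselves. Gbp2, a guanylate-binding protein, was at 59.8 CPM in RTT, 24.9 in RTT_ROSA26 and 192 in RTT_PTGS12KO (2.90), and Irgm1, a further immunity-related GTPase, at 28.5 CPM in RTT, 16.8 in RTT_ROSA26 and 88.3 in RTT_PTGS12KO (2.33). Cd274, which encodes the checkpoint ligand PD-L1, was at 26.3 CPM in RTT, 15.1 in RTT_ROSA26 and 70.4 in RTT_PTGS12KO, a log2 ratio of 2.15 (2.01 to 2.28). The Gbp genes, and Tgtp1 with Tgtp2, are near-identical families whose reads can be split between copies, so single values among them are uncertain. Gbp7 stood at 119 CPM in RTT, 52.1 in RTT_ROSA26 and 113 in RTT_PTGS12KO, so for this gene RTT lay at the level of RTT_PTGS12KO. Hspb1, a small heat shock protein and no interferon gene, was at 4.89 CPM in RTT, 5.50 in RTT_ROSA26 and 62.7 in RTT_PTGS12KO, but 58.9% of its UMIs in RTT_PTGS12KO lay in 16 cells, the 1% with the most, and its ratio ran 2.22 to 4.95 over the loads.

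Upstream sequences are shown because the interferon-gamma genes were higher together while the C1q genes were not. The 200 bases before the transcription start, from RefSeq on GRCm38.p6, were searched on both strands for TTCNNNGAA (GAS, the interferon-gamma activated site) and GAAA, any 2 bases and GAAA again (ISRE, the motif of IRF factors), written here in capitals, with overlapping matches of ISRE merged. Of the 18 interferon-gamma genes with at least 10 CPM, 13 had a sequence, and 5 of these held GAS, 9 ISRE and 10 either. Over all 27025 genes with such a window, 6.38% held GAS, 2.65% ISRE and 8.75% either. Of 9 complement genes and 8 TAM_C1q markers with a sequence, 0 and 0 held either. Either motif was found in 0 of 4 MHC class II genes and in 7 of 14 type I interferon genes. A match describes letters and is not a binding site. The 18 genes include some that reached 10 CPM only through RTT_PTGS12KO. Their list holds known interferon-gamma targets, chosen with earlier results known, so their share beside 8.75% is no result about these tumours. In the small complement, marker and class II groups, 0 is no contrast to 8.75%. In Irf1 the GAS match lay 90 bases before the first of its 2 listed starts, while the window of the other start held neither motif, and in Gbp2 the ISRE match 59 bases before the start. In Igtp, an immunity-related GTPase, the motifs stood side by side. RefSeq and GENCODE, which gave the gene positions, place some starts differently. By GENCODE the Irgm1 window lay within the gene, the C1qc window partly so, and the Gbp2 match after the gene's start.
Irf1, chr11:53769814-53770013, plus strand: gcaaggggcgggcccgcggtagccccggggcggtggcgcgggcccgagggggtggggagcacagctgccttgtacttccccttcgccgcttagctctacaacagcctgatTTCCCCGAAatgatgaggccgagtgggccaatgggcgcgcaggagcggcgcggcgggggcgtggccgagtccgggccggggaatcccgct
Gbp2, chr3:142620463-142620662, plus strand: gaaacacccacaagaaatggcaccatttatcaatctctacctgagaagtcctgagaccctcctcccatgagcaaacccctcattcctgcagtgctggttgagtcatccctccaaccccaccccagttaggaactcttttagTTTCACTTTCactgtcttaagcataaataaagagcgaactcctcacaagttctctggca
Irgm1, chr11:48871421-48871620, minus strand: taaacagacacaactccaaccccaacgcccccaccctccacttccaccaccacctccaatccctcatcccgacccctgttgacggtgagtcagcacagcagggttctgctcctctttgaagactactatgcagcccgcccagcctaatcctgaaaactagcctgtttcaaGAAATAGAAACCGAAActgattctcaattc
Igtp, chr11:58199356-58199555, plus strand: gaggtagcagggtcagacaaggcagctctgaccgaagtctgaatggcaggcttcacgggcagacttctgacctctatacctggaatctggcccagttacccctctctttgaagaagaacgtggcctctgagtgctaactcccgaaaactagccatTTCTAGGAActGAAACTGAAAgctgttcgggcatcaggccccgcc
C1qb, chr4:136886201-136886400, minus strand: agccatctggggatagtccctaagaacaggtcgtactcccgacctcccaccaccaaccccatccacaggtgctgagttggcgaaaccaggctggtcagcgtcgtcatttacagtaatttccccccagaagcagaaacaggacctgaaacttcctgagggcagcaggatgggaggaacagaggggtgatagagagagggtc
C1qc, chr4:136892915-136893114, minus strand: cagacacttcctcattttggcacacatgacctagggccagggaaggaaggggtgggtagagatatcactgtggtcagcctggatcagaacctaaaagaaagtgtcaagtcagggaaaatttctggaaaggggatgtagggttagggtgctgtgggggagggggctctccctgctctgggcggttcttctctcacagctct

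**Figure D3:**
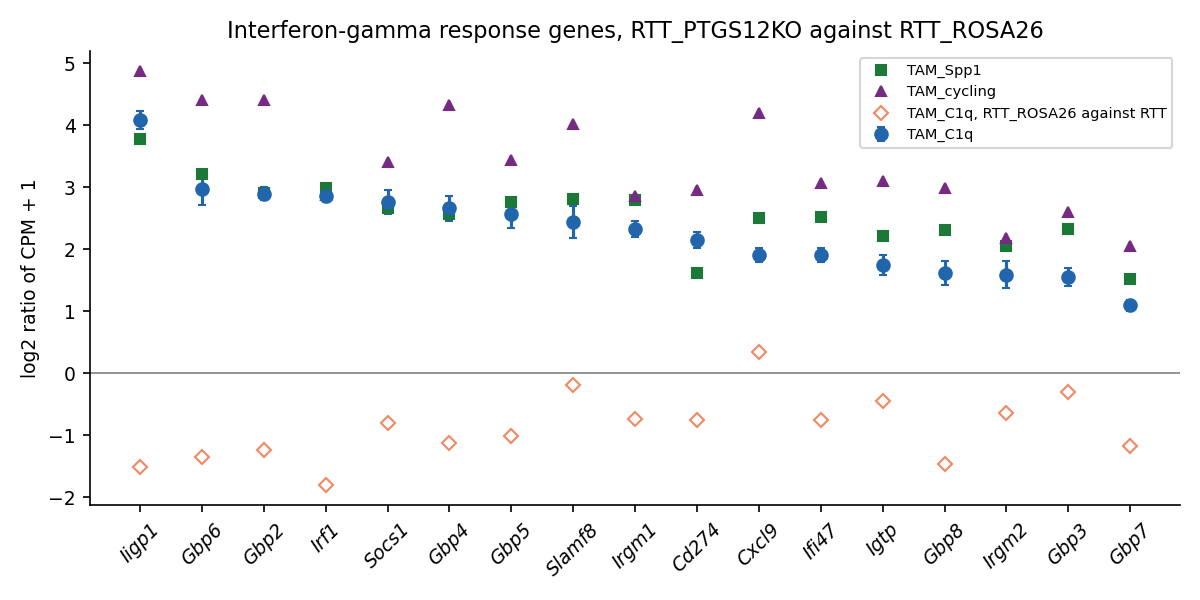
Log2 ratio of CPM + 1 for 17 of the 18 interferon-gamma response genes with at least 10 CPM: RTT_PTGS12KO against RTT_ROSA26 in TAM_C1q (circles, with 95% counting intervals), TAM_Spp1 (squares) and TAM_cycling (triangles), and RTT_ROSA26 against RTT in TAM_C1q (open diamonds). All 17 genes lay above 1 in the knockout comparison in TAM_C1q (6 of them averaged under 10 CPM over RTT and RTT_ROSA26), from 1.10 for Gbp7 to 4.08 for Iigp1.

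Interferon-gamma genes were then counted per cell. Of 5000 UMIs, the median TAM_C1q cell held 2 of interferon-gamma genes in RTT, 1 in RTT_ROSA26 and 4 in RTT_PTGS12KO, and the upper decile was 6, 3 and 18. Cells without any such UMI made up 17.6%, 35.9% and 8.42%. Unthinned, the medians were 5, 3 and 11, and the shares at 0 were 4.37%, 11.8% and 1.86%. NK cells of RTT_PTGS12KO, which respond to interferon themselves, had a median of 4, an upper decile of 14.5 and 5.80% at 0 (unthinned 11.5 and 0.654% for the median and the share at 0). The part of free RNA in these counts was not tested. Class II UMIs were spread less evenly: the medians were 2, 2 and 4, but the upper decile was 7 in RTT, 6 in RTT_ROSA26 and 37.2 in RTT_PTGS12KO, and 27.8% of RTT_PTGS12KO cells held 10 or more against 7.49% in RTT_ROSA26. In NK cells of RTT_PTGS12KO the class II median was 1 and 11.96% held 10 or more, more than of RTT_ROSA26 TAM_C1q, but 35.5% of these NK cells held none, against 15.4% of RTT_ROSA26 TAM_C1q. Unthinned, 52.7% of RTT_PTGS12KO and 22.5% of RTT_ROSA26 TAM_C1q cells and 15.7% of these NK cells held 10 or more, and the class II medians of TAM_C1q were 6, 5 and 10.

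**Figure D4:**
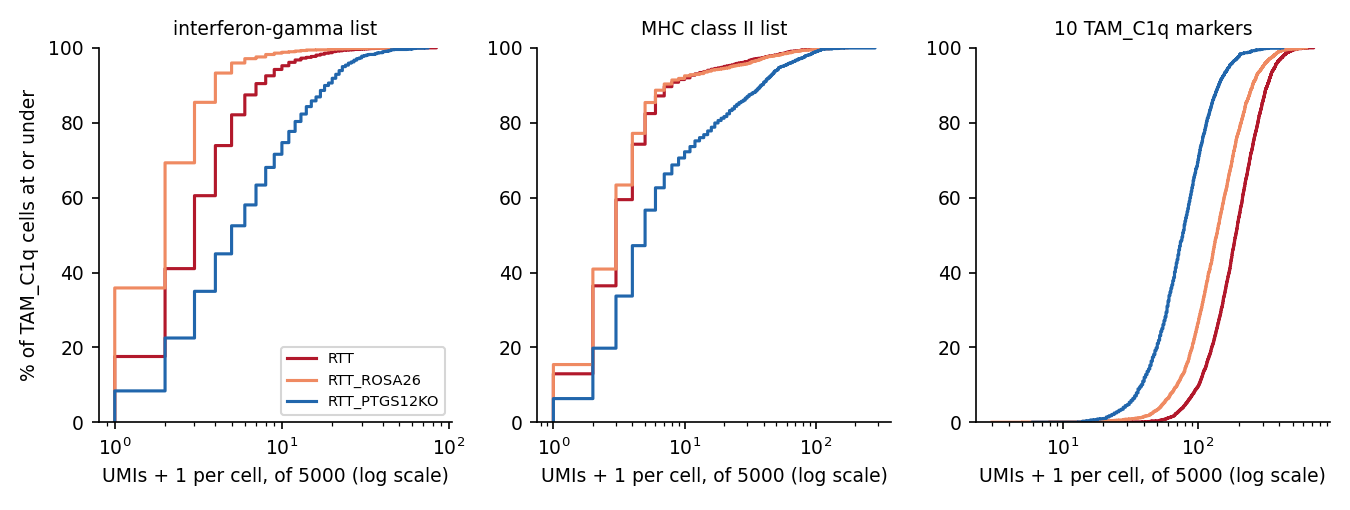
Cumulative share of TAM_C1q cells (y axis, percent) by the number of UMIs + 1, among 5000 per cell, that belong to the interferon-gamma list, the MHC class II list and the 10 TAM_C1q markers (x axes, log scale), for the 3 resistant tumours. The RTT_PTGS12KO curve lay to the right for interferon-gamma genes (median 4 UMIs) and to the left for the markers (median 76 UMIs).

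Most MHC class II genes and some class I genes were at least 2-fold higher in RTT_PTGS12KO, beside 1.32% of all genes. Of 6 MHC class II genes with at least 10 CPM, 4 were at least 2-fold higher in RTT_PTGS12KO and 0 lower, with a median of 1.33 (1.29 to 1.37), against 0.06 (0.02 to 0.10) for RTT_ROSA26 against RTT. H2-Ab1, a class II chain, was at 238 CPM in RTT, 252 in RTT_ROSA26 and 620.5 in RTT_PTGS12KO, a log2 ratio of 1.30 (1.26 to 1.34), with 1.09 to 1.52 over the loads. Cd74, the invariant chain, was at 85.9 CPM in RTT, 78.4 in RTT_ROSA26 and 215 in RTT_PTGS12KO. RTT and RTT_ROSA26 lay together for both genes and RTT_PTGS12KO above them. TAM_H2Ab1 macrophages, which are rich in class II, numbered 63 in RTT, 11 in RTT_ROSA26 and 364 in RTT_PTGS12KO, and their part in the class II values of TAM_C1q was not tested. Of 14 class I genes, 3 were at least 2-fold higher and 0 lower, with a median of 0.63, against -0.07 over all genes. All 14 lay above 0, the lowest at 0.33. The 3 past 2-fold were H2-T23 at 1.11, H2-Q7 at 2.03 and Tap1, a peptide transporter, at 1.62, and the H2 genes are similar enough to share reads. H2-K1, a classical class I chain, was at 871 CPM in RTT, 660.1 in RTT_ROSA26 and 1038 in RTT_PTGS12KO, and B2m, the class I light chain, at 2156 CPM in RTT, 1811 in RTT_ROSA26 and 2634 in RTT_PTGS12KO.

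Type I interferon response genes had a smaller median ratio. Of 17 with at least 10 CPM, 5 were at least 2-fold higher in RTT_PTGS12KO and 0 lower, with a median of 0.45 (0.28 to 0.62), against -0.20 (-0.32 to -0.05) for RTT_ROSA26 against RTT. Over the genes that averaged 10 CPM or more without RTT_PTGS12KO, 4 of 16 were at least 2-fold higher, with a median of 0.44. Isg15, an interferon-induced ubiquitin-like protein, was at 26.8 CPM in RTT, 25.1 in RTT_ROSA26 and 58.6 in RTT_PTGS12KO, a log2 ratio of 1.19 (1.07 to 1.31), and Irf7, the factor that amplifies type I interferon, at 16.3 CPM in RTT, 15.6 in RTT_ROSA26 and 21.6 in RTT_PTGS12KO, a log2 ratio of 0.45 (0.28 to 0.62). The ratios of the antiviral genes Zbp1, Rsad2 and Bst2 were 1.65, 1.52 and -0.09, so they did not differ alike. Cxcl11, Mx1 and Mx2 were not analysed here.

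Of 5 measured genes for T cell recruitment and support, 2 were at least 2-fold higher in RTT_PTGS12KO. Cxcl10, a ligand of CXCR3, was at 87.8 CPM in RTT, 70.5 in RTT_ROSA26 and 621 in RTT_PTGS12KO, a log2 ratio of 3.12 (3.06 to 3.18), with 3.09 to 3.14 over the loads. In cells thinned to 5000 UMIs it had a UMI in 12.7% (11.6% to 13.9%) of RTT, 12.3% (11.0% to 13.8%) of RTT_ROSA26 and 31.9% (29.6% to 34.4%) of RTT_PTGS12KO cells, against 17.0% (12.8% to 21.99%) of NK cells in RTT_PTGS12KO (unthinned 22.4%, 22.3%, 42.2% and 28.8%). In levels, NK cells were at 293 CPM in RTT_PTGS12KO and at 8.70 (2.37 to 22.3) in RTT_ROSA26, where they were 26 cells, so TAM_C1q lay above the NK cells of its own tumour in both. The part of free RNA was not tested. Cxcl9, the other CXCR3 ligand, was at 17.4 CPM in RTT, 22.4 in RTT_ROSA26 and 86.9 in RTT_PTGS12KO, a log2 ratio of 1.91 (1.79 to 2.03). It rested on few cells, since 54.9% of its UMIs in RTT_PTGS12KO and 82.4% in RTT_ROSA26 lay in 1% of the cells, and over the loads the ratio ran from 0.51 to 3.01. Its share of cells in RTT_PTGS12KO, 11.3% (9.71% to 12.97%), overlapped that of NK cells, 9.78% (6.55% to 13.9%) (unthinned 20.4% and 12.7%). Il15, a cytokine that sustains T and NK cells, stayed low at 6.81 CPM in RTT, 6.34 in RTT_ROSA26 and 7.58 in RTT_PTGS12KO, a log2 ratio of 0.22 (-0.03 to 0.48).

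Markers of other cells were read beside these results. The 9 monocyte markers summed to 291 CPM in RTT, 292 in RTT_ROSA26 and 688 in RTT_PTGS12KO, where 3 of 6 measured genes were at least 2-fold higher and all 6 had ratios of 0.53 or more, with a median of 0.97 (0.89 to 1.07). Those past 2-fold were Ly6a at 2.06, Plac8 at 1.12 and Ms4a4c at 1.07. Ly6a also responds to interferon. Hp and Vcan, markers of the same list under 10 CPM, had ratios of -0.01 (-0.32 to 0.29) and -0.28 (-0.55 to -0.02), the latter 0.30 in load 3 alone. Markers of dendritic cells summed to 52.1, 54.8 and 103 CPM in the same order of samples, mostly Naaa and Wdfy4, of which Naaa was past 2-fold, at 1.49 (1.38 to 1.61), while Flt3, Zbtb46, Xcr1 and Clec9a were each below 1 CPM in the resistant tumours. Of 8 TAM_H2Ab1-type genes, 5 were at least 2-fold higher in RTT_PTGS12KO, with a median of 1.12. Together the 8 genes summed to 1339, 1342 and 2439.7 CPM. The list shares H2-Aa and H2-Ab1 with the class II list. The 4 haemoglobin genes summed to 201, 45.1 and 186 CPM, and all 4 were at least 2-fold higher in RTT_PTGS12KO than in RTT_ROSA26, with a median of 1.94 that turned to -2.27 in load 1 alone. Markers of NK and T cells, 11 genes, summed to 10.9, 8.37 and 13.01 CPM, with Cd3e at 0.121, 0 and 0, and 0 of them reached 10 CPM. Melanoma markers summed to under 1 CPM in each. The part of RNA from any of these cells in the interferon-gamma and class II results was not tested. In the cells with more TAM_C1q than TAM_Spp1 marker UMIs the interferon-gamma median was 2.17.

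The complement genes, by contrast, lay near the median of all genes. Of 14 measured, 1 was at least 2-fold higher in RTT_PTGS12KO and 0 lower, with a median of -0.16 (-0.22 to -0.13), against 0.04 (-0.01 to 0.08) for RTT_ROSA26 against RTT. Over genes that averaged 10 CPM or more in RTT and RTT_ROSA26, 0 of 14 were at least 2-fold higher. C1qa had a log2 ratio of -0.31 (-0.33 to -0.30). C1qb was at 5063 CPM in RTT, 4906 in RTT_ROSA26 and 4358 in RTT_PTGS12KO, a log2 ratio of -0.17 (-0.18 to -0.16), and C1qc at 2854 CPM in RTT, 2599 in RTT_ROSA26 and 2234 in RTT_PTGS12KO, a log2 ratio of -0.22 (-0.23 to -0.20). The 3 chains thus differed by less than 1.5-fold between any of these tumours. Cfb, the protease of the alternative pathway and the 1 gene past 2-fold, was under 10 CPM in the other resistant tumours, at 8.70 CPM in RTT, 7.85 in RTT_ROSA26 and 17.5 in RTT_PTGS12KO, a log2 ratio of 1.06 (0.86 to 1.27). Cfp, properdin, was at 326 CPM in RTT, 337 in RTT_ROSA26 and 175 in RTT_PTGS12KO, a log2 ratio of -0.95 (-0.996 to -0.89), and C4b at 7.57 CPM in RTT, 16.0 in RTT_ROSA26 and 29.6 in RTT_PTGS12KO, a log2 ratio of 0.85 (0.70 to 1.01). C3, the central component, was at 13.3 CPM in RTT, 10.9 in RTT_ROSA26 and 9.74 in RTT_PTGS12KO. For the receptors C3ar1 and C5ar1 the ratios were -0.30 and -0.27, and Vsig4, a complement receptor of resident macrophages, was at 3.15 CPM in RTT, 3.19 in RTT_ROSA26 and 0.974 in RTT_PTGS12KO, under the minimum.

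Of the 10 markers of the cluster, Trf passed 2-fold between RTT_PTGS12KO and RTT_ROSA26. The cells were clustered with these genes, so their values are a description. Their median was -0.60 (-0.65 to -0.55), with 1 of 10 at least 2-fold lower and 0 higher, against -0.36 (-0.38 to -0.34) for RTT_ROSA26 against RTT. In the cells that held more TAM_C1q than TAM_Spp1 marker UMIs, 67.9% of those in RTT_PTGS12KO and 92.0% in RTT_ROSA26, the median was -0.44. Trf, transferrin, was at 912 CPM in RTT, 475 in RTT_ROSA26 and 196 in RTT_PTGS12KO, a log2 ratio of -1.27 (-1.32 to -1.22), with -1.33 to -1.17 over the loads, and -0.94 (-0.97 to -0.92) for RTT_ROSA26 against RTT. In thinned cells Trf had a UMI in 90.0% (89.0% to 91.0%) of RTT, 78.3% (76.5% to 80.0%) of RTT_ROSA26 and 50.03% (47.5% to 52.6%) of RTT_PTGS12KO cells, against 9.78% (6.55% to 13.9%) of NK cells in RTT_PTGS12KO (unthinned 97.0%, 92.2%, 73.2% and 28.4%). The share of cells thus followed the level. Apoe had log2 ratios of -0.97 and -0.46 in the same order. Both genes descended from RTT over RTT_ROSA26 to RTT_PTGS12KO. Stab1, a scavenger receptor, was at 618 CPM in RTT, 515 in RTT_ROSA26 and 301 in RTT_PTGS12KO, a log2 ratio of -0.77 (-0.81 to -0.73), and Npl at 214 CPM in RTT, 126 in RTT_ROSA26 and 72.6 in RTT_PTGS12KO, a log2 ratio of -0.79 (-0.87 to -0.71). Mrc1, the mannose receptor, gave -0.19 (-0.22 to -0.16) and Folr2 -0.23 (-0.28 to -0.18), nearer to the median of all genes.

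Groups for uptake and digestion showed small shifts. Of 20 lipid handling genes, 2 were at least 2-fold higher and 0 lower, with a median of -0.28. Cd36, a fatty acid receptor and 1 of the higher genes, was at 6.77 CPM in RTT, 13.2 in RTT_ROSA26 and 31.3 in RTT_PTGS12KO, a log2 ratio of 1.19 (1.03 to 1.35). Cd36 averaged under 10 CPM over RTT and RTT_ROSA26. Over lipid genes that averaged 10 CPM or more in those samples, 1 of 18 passed 2-fold, with a median of -0.30. Abca1, the cholesterol exporter, gave -0.58 (-0.62 to -0.54) and Gpnmb -0.13 (-0.28 to 0.03). None of 23 lysosomal genes passed 2-fold, and their median was -0.25 (-0.29 to -0.21), against -0.11 (-0.12 to -0.06) for RTT_ROSA26 against RTT. Ctsd, a cathepsin, was at 1752 CPM in RTT, 2008 in RTT_ROSA26 and 1289.8 in RTT_PTGS12KO, a log2 ratio of -0.64 (-0.66 to -0.62), and Lgmn, legumain, gave -0.21 (-0.23 to -0.19). Of 13 efferocytosis genes 1, Cd36, passed 2-fold (0 of 12 without the genes that enter through RTT_PTGS12KO), and the receptors Mertk and Axl gave -0.47 (-0.57 to -0.36) and 0.44 (0.34 to 0.53). Of 12 iron genes, Trf alone was at least 2-fold lower. Slc40a1 was at 22.8 CPM in RTT, 13.2 in RTT_ROSA26 and 3.47 in RTT_PTGS12KO, a log2 ratio of -1.67 (-1.95 to -1.39), below the minimum of 10 CPM.

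Genes of scavenging and alternative activation, matrix and checkpoints held few differences past 2-fold. Of 14 scavenger and alternative activation genes, 0 were at least 2-fold higher and 0 lower in RTT_PTGS12KO, with a median of -0.21 (-0.25 to -0.16). Selenop, a secreted selenium carrier, was at 1141 CPM in RTT, 954 in RTT_ROSA26 and 595 in RTT_PTGS12KO, a log2 ratio of -0.68 (-0.71 to -0.65). Selenop was lowest in RTT_PTGS12KO among the samples. F13a1, a coagulation factor, had a ratio of 0.20 (0.17 to 0.23) for the knockout and -0.98 (-1.01 to -0.96) for RTT_ROSA26 against RTT. Of 13 angiogenic and matrix genes, 1 was at least 2-fold lower and 0 higher. That gene was Igf1, a growth factor, at 22.98 CPM in RTT, 29.5 in RTT_ROSA26 and 13.3 in RTT_PTGS12KO, a log2 ratio of -1.10 (-1.27 to -0.92). Spp1, osteopontin, was at 4134 CPM in RTT, 5206 in RTT_ROSA26 and 6884 in RTT_PTGS12KO, and Fn1, fibronectin, at 784 CPM in RTT, 1115 in RTT_ROSA26 and 1743 in RTT_PTGS12KO. Both were highest in RTT_PTGS12KO, the sample in which more TAM_C1q cells held mostly TAM_Spp1 marker UMIs. Of 10 checkpoint and costimulatory genes, Cd274 alone passed 2-fold. Cd40, a costimulatory receptor, was at 8.70 CPM in RTT, 14.5 in RTT_ROSA26 and 27.6 in RTT_PTGS12KO, a log2 ratio of 0.88 (0.72 to 1.04), and Cd86, a ligand of CD28 and CTLA4, at 143 CPM in RTT, 129.8 in RTT_ROSA26 and 113 in RTT_PTGS12KO, a log2 ratio of -0.20 (-0.27 to -0.13).

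**Figure D5:**
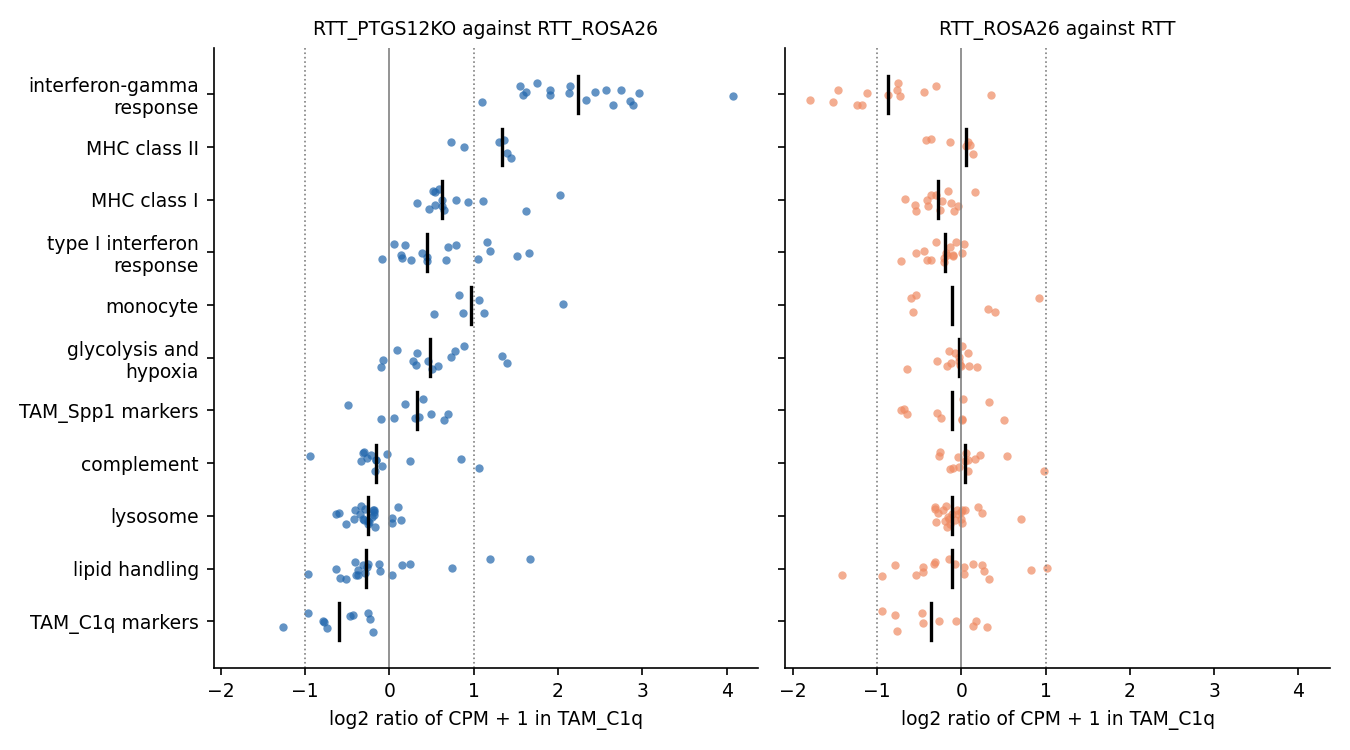
Log2 ratio of CPM + 1 in TAM_C1q for the measured genes of 11 lists (points, jittered in height) with each list's median (bar), for RTT_PTGS12KO against RTT_ROSA26 (left) and RTT_ROSA26 against RTT (right); dotted lines mark 2-fold. The interferon-gamma median was 2.24 on the left and -0.87 on the right, and the complement median -0.16 and 0.04.

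Among the 2501 genes that reached 50 CPM in either sample, the 8 lowest ratios were those of Ctla2a, Ifitm1, Cxcl1, Rapsn, Tmem176a, Ltc4s, Tnf and Tmem176b. Ctla2a, a cathepsin inhibitor, was at 272 CPM in RTT, 277 in RTT_ROSA26 and 41.1 in RTT_PTGS12KO, a log2 ratio of -2.73 (-2.82 to -2.63), with -2.92 to -2.47 over the loads. NK cells also carry Ctla2a, with a UMI in 94.2% of thinned NK cells in RTT_PTGS12KO, and RTT_PTGS12KO held 306 NK cells against 26 in RTT_ROSA26. The part of NK cell RNA was not tested. Ifitm1, an antiviral membrane protein, was at 1075 CPM in RTT, 543 in RTT_ROSA26 and 130.2 in RTT_PTGS12KO, a log2 ratio of -2.05 (-2.11 to -1.996), and Cxcl1, a neutrophil chemokine, at 338 CPM in RTT, 117 in RTT_ROSA26 and 36.9 in RTT_PTGS12KO, a log2 ratio of -1.64 (-1.74 to -1.53). Tnf was at 178 CPM in RTT, 89.5 in RTT_ROSA26 and 35.4 in RTT_PTGS12KO, a log2 ratio of -1.32 (-1.42 to -1.21). Ifitm1, Cxcl1 and Tnf were also lower in RTT_ROSA26 than in RTT, with log2 ratios of -0.98, -1.52 and -0.98. Rapsn was at 52.8 CPM in RTT, 56.7 in RTT_ROSA26 and 17.7 in RTT_PTGS12KO, a log2 ratio of -1.63 (-1.78 to -1.48). Tmem176a and its neighbour Tmem176b, which overlap on opposite strands, stood apart in RTT_ROSA26 at 55.9 and 83.1 CPM, while RTT and RTT_PTGS12KO lay at 18.1 and 20.2 for Tmem176a.

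Chemokines for myeloid cells differed in both directions. Of 13, 1 was at least 2-fold higher in RTT_PTGS12KO and 3 lower, with a median of -0.43, and 3 of 13 were at least 2-fold lower in RTT_ROSA26 against RTT. Ccl8, a monocyte chemokine, was at 240.1 CPM in RTT, 221 in RTT_ROSA26 and 488 in RTT_PTGS12KO, a log2 ratio of 1.14 (1.10 to 1.18), with 0.91 to 1.34 over the loads, and 34.3% of its UMIs in RTT_PTGS12KO lay in 1% of the cells. Cxcl1, Ppbp and Ccl3 were the lower genes, Ccl3 at 512 CPM in RTT, 427 in RTT_ROSA26 and 192 in RTT_PTGS12KO and Ppbp at 56.9 CPM in RTT, 17.1 in RTT_ROSA26 and 3.601 in RTT_PTGS12KO. Pf4 was at 5253 CPM in RTT, 3459 in RTT_ROSA26 and 1838 in RTT_PTGS12KO, a log2 ratio of -0.91 (-0.93 to -0.90) after -0.60 (-0.61 to -0.59) for RTT_ROSA26 against RTT. Ccl2 and Ccl12, ligands of CCR2, were ordered the opposite way from Pf4, at 552 CPM in RTT, 1056 in RTT_ROSA26 and 1430.2 in RTT_PTGS12KO and at 612, 1139 and 1689 in the same order.

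Prostaglandin and leukotriene genes were measured in the macrophages themselves, which were not edited. Of 9 with at least 10 CPM, 2 were at least 2-fold lower in RTT_PTGS12KO and 0 higher. Ptgs1 was at 91.4 CPM in RTT, 68.8 in RTT_ROSA26 and 27.8 in RTT_PTGS12KO, a log2 ratio of -1.28 (-1.40 to -1.15), with -1.32 to -1.24 over the loads, and -0.40 (-0.48 to -0.33) for RTT_ROSA26 against RTT. Ltc4s, leukotriene C4 synthase, was at 92.9 CPM in RTT, 78.6 in RTT_ROSA26 and 30.2 in RTT_PTGS12KO, a log2 ratio of -1.35 (-1.47 to -1.24). Ptgs2 was at 221 CPM in RTT, 147 in RTT_ROSA26 and 184 in RTT_PTGS12KO, a log2 ratio of 0.32 (0.26 to 0.38), so RTT_ROSA26 was lowest and RTT highest. The receptor Ptger4 was at 12.3 CPM in RTT, 19.1 in RTT_ROSA26 and 18.8 in RTT_PTGS12KO, a log2 ratio of -0.02 (-0.19 to 0.15), and Ptger2 stayed under 10 CPM in all 4 samples, between 7.27 and 9.33 in the resistant tumours. Hpgds, a prostaglandin D synthase, was at 161 CPM in RTT, 171 in RTT_ROSA26 and 101 in RTT_PTGS12KO, a log2 ratio of -0.75 (-0.82 to -0.69).

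The same comparison in TAM_Spp1 and TAM_cycling was set beside TAM_C1q without a test of the difference. All 18 interferon-gamma genes measured in TAM_C1q were at least 2-fold higher in RTT_PTGS12KO in both, beside 1.51% and 2.39% of all genes tested in TAM_C1q, with medians of 2.55 in TAM_Spp1 and 3.08 in TAM_cycling. Of the 13 genes that averaged 10 CPM or more over RTT and RTT_ROSA26 in TAM_C1q, 12 were at least 2-fold higher in TAM_Spp1 and 13 in TAM_cycling, with medians of 2.33 and 2.99. MHC class II medians were 1.11 and 2.36. The C1q genes differed in sign between classes. The log2 ratio of C1qa was -0.31 in TAM_C1q, 0.46 in TAM_Spp1 and -0.52 in TAM_cycling, and that of C1qc was -0.22 in TAM_C1q, 0.59 in TAM_Spp1 and -0.35 in TAM_cycling. The 10 TAM_C1q markers had medians of -0.33 in TAM_Spp1 and -1.41 in TAM_cycling, where all 10 were at least 2-fold lower, beside 1.7% of all genes. The ratio of Ccl12 was 0.57 in TAM_C1q, 2.02 in TAM_Spp1 and 0.37 in TAM_cycling.

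The resistant tumours that keep both genes also differed from each other. In RTT_ROSA26 against RTT the highest ratios among the 2492 genes that reached 50 CPM in either sample were those of Ch25h, Tmem176a, Tmem176b, Ckb and Pmp22. Ch25h, which makes an oxysterol, was at 30.3 CPM in RTT, 98.3 in RTT_ROSA26 and 109 in RTT_PTGS12KO, a log2 ratio of 1.67 (1.58 to 1.75), and Ckb, a creatine kinase, at 69.7 CPM in RTT, 167 in RTT_ROSA26 and 214 in RTT_PTGS12KO, a log2 ratio of 1.25 (1.19 to 1.31). Pmp22, a myelin gene, was at 21.0 CPM in RTT, 51.2 in RTT_ROSA26 and 69.3 in RTT_PTGS12KO. For Ch25h and Ckb RTT was the lowest of the resistant tumours. The lowest of these genes were Hbb-bs, Irf1, Il10, Ppbp and AW112010. Il10, an anti-inflammatory cytokine, was at 55.1 CPM in RTT, 16.2 in RTT_ROSA26 and 11.1 in RTT_PTGS12KO, a log2 ratio of -1.71 (-1.83 to -1.58), and AW112010, a long noncoding RNA of interferon responses, at 471 CPM in RTT, 161 in RTT_ROSA26 and 562 in RTT_PTGS12KO, a log2 ratio of -1.55 (-1.59 to -1.50). Hbb-bs, a haemoglobin chain, was at 125 CPM in RTT, 24.2 in RTT_ROSA26 and 93.8 in RTT_PTGS12KO, and 98.3% of its UMIs in RTT lay in 1% of the cells, 1 of which held 2120. Its value is thus that of a few cells.

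NTT held only 12 TAM_C1q cells, so its values are given without comparison by group. Fcrls was at 607 (interval 516 to 709) CPM, Apoe at 21137 (interval 20583 to 21703), C1qa at 2891 (interval 2688 to 3105) and Npl at 184 (interval 136 to 244). The markers were thus present in these few cells, and all 12 held more UMIs of TAM_C1q than of TAM_Spp1 markers. H2-Ab1 was at 1593 (interval 1444 to 1754), Irf1 at 211 (interval 159 to 275) and Cxcl10 at 334 (interval 268 to 412). H2-Ab1 lay above the 3 resistant tumours by its interval, while Irf1 overlapped RTT_PTGS12KO. The 9 monocyte markers summed to 2718 CPM, more than in any resistant tumour, and their part in these values was not tested. Hspb1 had 0 UMIs, and the floor of 3 counts used for a count of 0 is 11.5 CPM.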

How the data were processed

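CD45+ cells of the 4 samples were labelled with oligos, pooled and loaded 3 times for 3′ single-cell sequencing. The authors deposited UMI counts of 32285 genes in 33368 cells with each cell's sample and cell type name. Per the study's methods, counts came from cellranger multi on mm10, and clusters were named in Seurat 4.3.0 after integration with other experiments. Deposited cells held at least 1001 genes, at most 15.0% mitochondrial and 40.0% ribosomal UMIs. The oligos remove doublets of different samples. Doublets within a sample were not called, and the pooled samples shared any free RNA of a load. UMIs of TAM_C1q cells were added up in each sample and expressed as CPM, and log2 ratios of CPM + 1 were taken over genes with a mean of 10 CPM or more (numpy 2.4.6, scipy 1.17.1, pandas 2.3.3, matplotlib 3.10.9, Python 3.11.15). edgeR 4.0.16 (R 4.3.3) gave TMM factors and was used for no test. The calculation of the ratios was checked on simulated counts with known ratios. Genes were named if they were among 51 chosen genes or had 1 of the 8 most extreme ratios each way for the knockout or against TAM_Spp1, or 1 of the 5 most extreme each way between RTT_ROSA26 and RTT, where the higher sum reached 50 CPM. Mitochondrial and ribosomal genes were left out. Other genes were named as members of lists, after their values were seen. A few genes are not reported here by name, though list counts and medians include them. Members, gene lists and tests were chosen with earlier results of these data known. Gene positions came from the GENCODE annotation of GRCm38. Alternatives were TMM factors, a pseudocount of 10 CPM, no minimum CPM, equal weight per cell, over 1500 genes and under 10% mitochondrial UMIs, cells with more TAM_C1q than TAM_Spp1 marker UMIs, removal of the 5% of cells with the most UMIs or of the tenth highest in cell cycle genes, single loads, and other denominators. RTT as the comparator was chosen after seeing the data.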

Additional observations from a re-analysis of the deposited data

How the results depend on the processing

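No paired analysis was possible because there is 1 sample in each group. Of the alternatives to counts, shares and main list medians, 168 stayed within the counting interval, or for counts within 1.5-fold, and 49 did not. For single genes 1169 alternatives stayed within the interval, 562 left it and 17 turned in sign. For the other lists these numbers were 455, 133 and 9. The cause was not tested except where the alternative itself changes what enters. CPM + 10 gave 54 genes higher and 17 lower for RTT_PTGS12KO against RTT_ROSA26 and 6 and 16 for RTT_ROSA26 against RTT, and no minimum, which admits scarce genes, gave 145, 78, 24 and 64. With RTT as the comparator 114 genes were lower in RTT_PTGS12KO. For RTT_PTGS12KO against RTT_ROSA26, the TAM_C1q marker median was -0.53 with TMM, -0.44 in cells with more TAM_C1q marker UMIs, -0.65 in load 3 and -0.85 against RTT, and the complement median -0.096 with TMM. The interferon-gamma median was 1.57 with CPM + 10, 1.90 with no minimum, 2.08 with equal cells, 2.38 in load 3 and 1.39 against RTT. The MHC class II median was 1.40, 1.09, 1.38 and 1.47 with TMM, no minimum, equal cells and marker-rich cells, and 1.12, 1.23 and 1.601 in loads 1, 2 and 3. For RTT_ROSA26 against RTT, the marker median was -0.38 with TMM, -0.32 in marker-rich cells and -0.38 and -0.34 in loads 1 and 3, the complement median -0.028 and 0.083 in those loads, the interferon-gamma median -0.61, -0.73 and -1.04 with CPM + 10, no minimum and load 3, and the MHC class II median 0.12 with equal cells, 0.14 without the 5% of cells with the most UMIs and -0.014 in load 2, a change of sign.

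Shares moved in these cases. Without the 5% of cells with the most UMIs NTT was at 0.0509% of CD45+ cells and 1.72% of macrophages. With marker-rich cells alone RTT_ROSA26 was at 30.3% and 34.5% and RTT_PTGS12KO at 10.3% and 20.3%. RTT was at 41.6% of CD45+ cells in load 2, and RTT_PTGS12KO at 16.3% and 31.5% in load 1 and 13.8% and 27.8% in load 3. Signs turned for RTT_PTGS12KO against RTT_ROSA26 in load 1 for macrophage transcription factors (0.0029), neutrophil markers (-0.083, and -0.049 in load 2), haemoglobin genes (-2.27), Hbb-bs (-3.27, and -0.22 in load 3) and Chil3 (-0.26), and in load 3 for Vcan (0.30). Against RTT they turned for Ptgs2 (-0.26), Tmem176a (0.15), Tmem176b (0.28), Hbb-bs (-0.41), Chil3 (-0.043) and F10 (-0.038). For RTT_ROSA26 against RTT they turned for T cell stimulation genes with no minimum (-0.20), without the tenth of cells highest in cell cycle genes (-0.096) and in load 3 (-0.14), for resident-type genes with no minimum (0.0083), for haemoglobin genes (0.66), Rapsn (-0.039) and Hbb-bs (0.0077) in load 1, for C3 in load 2 (0.095), for Ctsb (0.0098), Ccl8 (0.12) and Cxcl9 (-1.04) in load 3, and for C1qa in marker-rich cells (0.00082).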

Other observations

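Some glycolysis and hypoxia genes were at least 2-fold higher in TAM_C1q of RTT_PTGS12KO, beside 1.32% of all genes. Of 14 measured, 2 were at least 2-fold higher than in RTT_ROSA26 and 0 lower, with a median of 0.48 (0.45 to 0.51), against -0.02 (-0.09 to 0.01) for RTT_ROSA26 against RTT. Those past 2-fold were Pfkp, a phosphofructokinase, at 31.9 CPM in RTT, 36.4 in RTT_ROSA26 and 97.3 in RTT_PTGS12KO, and Ndrg1, a hypoxia-induced gene, at 34.3 CPM in RTT, 33.9 in RTT_ROSA26 and 87.3 in RTT_PTGS12KO. Pgk1, a glycolytic kinase, was at 439 CPM in RTT, 441 in RTT_ROSA26 and 756 in RTT_PTGS12KO. For all 3 genes RTT and RTT_ROSA26 lay close together and RTT_PTGS12KO above them. Vegfa, a hypoxia target too, was at 184 CPM in RTT, 151 in RTT_ROSA26 and 141 in RTT_PTGS12KO.

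Among 17 macrophage transcription factors, Klf2 and Klf4 were at least 2-fold higher in RTT_PTGS12KO, Klf4 at 90.9 CPM in RTT, 95.5 in RTT_ROSA26 and 231 in RTT_PTGS12KO, and Id3 was lower at 56.0 CPM in RTT, 29.5 in RTT_ROSA26 and 12.6 in RTT_PTGS12KO. Irf8, which acts with IRF1, was at 154 CPM in RTT, 152 in RTT_ROSA26 and 270.3 in RTT_PTGS12KO. Maf, a factor of resident and alternatively activated macrophages, was at 636 CPM in RTT, 474 in RTT_ROSA26 and 337 in RTT_PTGS12KO. Genes that respond to cyclic AMP, the messenger of the prostaglandin receptors Ptger2 and Ptger4, had a median of 0.34 (0.24 to 0.45) in RTT_PTGS12KO against RTT_ROSA26 and -0.18 (-0.24 to -0.12) in RTT_ROSA26 against RTT, and 1 of 12 passed 2-fold, Areg at 12.04 CPM in RTT, 8.40 in RTT_ROSA26 and 20.1 in RTT_PTGS12KO. Crem, a cyclic AMP target, was at 69.8 CPM in RTT, 65.3 in RTT_ROSA26 and 105 in RTT_PTGS12KO. Immediate-early and heat shock genes, which respond to the handling of cells, gave 0.35 (0.31 to 0.41) and -0.27 (-0.31 to -0.21) in the same comparisons, with 1 of 16 past 2-fold in the first, and their part in the values of the cyclic AMP genes was not tested. Cell cycle genes had a median of -0.04 (-0.25 to 0.10) in the knockout comparison, with 0 of 17 past 2-fold, and 0.35 (0.19 to 0.50) in RTT_ROSA26 against RTT. Acp5, an osteoclast phosphatase, was at 274 CPM in RTT, 199 in RTT_ROSA26 and 92.5 in RTT_PTGS12KO, a log2 ratio of -1.09 (-1.16 to -1.03).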
